A study of Mus musculus with 7 samples.

Results

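Oxidative phosphorylation in mouse liver is described here through 105 of the 51826 genes of the deposited count table. A gene was included if its name began with Nduf, Uqcr, Cox4, Cox5, Cox6, Cox7, Cox8 or Atp5, if it was Sdha, Sdhb, Sdhc, Sdhd, Cyc1 or Cycs, or if it lay on the mitochondrial chromosome, provided that its mean over the 7 libraries was at least 10 counts. Of these genes, 92 are nuclear and 13 are encoded by mitochondrial DNA. The libraries are of liver from untreated male C57BL/6J mice at 6 months of age, 3 of them wild type and 4 homozygous for the Sprtn Y118C knock-in allele. Sprtn encodes a protease that degrades proteins crosslinked to DNA, and the series asks what its mutation does to liver gene expression. The labels do not say whether each library came from a separate animal, so the p-values measure the spread between these libraries.

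The respiratory chain passes electrons from NADH through complex I, or from succinate through complex II, to coenzyme Q and on through complex III and cytochrome c to complex IV, where oxygen is reduced. Complexes I, III and IV pump protons across the inner mitochondrial membrane, and complex V, the ATP synthase, makes ATP as the protons return. All complexes but complex II combine subunits made in the cytosol from nuclear genes with subunits made inside the organelle from mitochondrial DNA, so that both genomes supply each enzyme. Hepatocytes are rich in mitochondria and use this ATP for urea synthesis, gluconeogenesis and protein secretion.

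Among the nuclear genes, 36 encode subunits of complex I, 8 are Ndufaf assembly factors of complex I, 4 encode complex II, 9 complex III, 17 complex IV and 15 complex V. The others were Cycs, which encodes cytochrome c, and 2 genes with Atp5 names that encode no core subunit of the ATP synthase, Atp5s and Atp5sl. The mitochondrial genes encode 7 subunits of complex I, 1 of complex III, 3 of complex IV and 2 of complex V. A total of 139 rows matched the names or the chromosome. Left out were 7 rows with -ps names, 24 mitochondrial rows for 22 tRNAs and 2 rRNAs that were listed at 0 in every library, and Cox4i2, Cox7b2 and Cox8c, which lay under the minimum. Just outside it was Cox4i2 with a mean of 5.0 counts, and just inside were Cox6a2 with 10.3, Cox6b2 with 12.9 and Cox8b with 15.4.

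Promoters of the nuclear genes are known for binding sites of NRF1, of the ETS factor GABPA and of YY1, factors that control many genes of this pathway. A RefSeq window on GRCm38.p6, from 250 bases before the transcript start to 50 bases after it, was matched to 77 of the 92 nuclear genes, 3 of them through an older symbol. Letter strings of the NRF1 palindrome with any base at 1 position, of the ETS core (CCGGAAG) and of the YY1 site were searched on both strands, and none of them contains another. The NRF1 string was found in 24.7% of the 77 genes, against 5.13% of 26948 other genes, and its stricter form with that base fixed in 9.09% against 1.05%. The ETS string was found in 23.4% against 9.89%, and the YY1 string in 7.79% against 1.15%. These matches describe letters in the window and are not measured binding. The windows below are those of Cox6a1, the nuclear gene with the highest level, and of Sdhd, which holds both an NRF1 and an ETS match. The last window is that of Uqcrh, which had the smallest p in edgeR of the 103 genes tested. Capitals mark NRF1 and ETS matches on either strand.
Cox6a1 promoter, chr5:115348909-115349208, minus strand: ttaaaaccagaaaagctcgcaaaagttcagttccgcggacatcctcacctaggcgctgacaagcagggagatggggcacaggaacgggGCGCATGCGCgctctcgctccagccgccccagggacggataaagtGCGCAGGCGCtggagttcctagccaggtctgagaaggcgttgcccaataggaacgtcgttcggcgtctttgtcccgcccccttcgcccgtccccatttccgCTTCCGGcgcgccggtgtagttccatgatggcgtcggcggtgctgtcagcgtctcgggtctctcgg
Sdhd promoter, chr9:50603800-50604099, minus strand: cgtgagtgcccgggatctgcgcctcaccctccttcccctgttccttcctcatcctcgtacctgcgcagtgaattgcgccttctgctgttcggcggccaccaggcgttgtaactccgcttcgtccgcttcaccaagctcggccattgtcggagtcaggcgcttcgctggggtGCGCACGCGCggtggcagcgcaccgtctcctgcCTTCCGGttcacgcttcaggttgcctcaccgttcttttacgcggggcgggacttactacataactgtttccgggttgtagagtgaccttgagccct
Uqcrh promoter, chr4:116075021-116075320, minus strand: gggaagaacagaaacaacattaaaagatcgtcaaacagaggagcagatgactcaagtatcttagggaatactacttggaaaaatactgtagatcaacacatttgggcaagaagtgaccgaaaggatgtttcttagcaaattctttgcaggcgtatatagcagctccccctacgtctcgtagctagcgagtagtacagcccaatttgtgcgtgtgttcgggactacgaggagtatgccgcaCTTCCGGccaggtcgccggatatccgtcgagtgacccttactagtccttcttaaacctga

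The mitochondrial genome packs its genes with few spacers, and neighbours can share bases. The open reading frames of mt-Atp8 and mt-Atp6, the ATP synthase subunits it encodes, share 43 bases, from position 7927 to 7969, which are shown in capitals with 15 bases of context on each side.
mt-Atp8 and mt-Atp6 junction, chrMT:7912-7984, plus strand: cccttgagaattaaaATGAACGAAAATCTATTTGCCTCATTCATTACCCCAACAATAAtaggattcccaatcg
These bases are 21.1% of mt-Atp8, and the counts of both genes cannot be separated there. mt-Nd4l and mt-Nd4 share 7 bases. In GENCODE release M21, 42 of the 105 genes share exonic bases with another gene and 13 share at least 10% of their exonic length with 1 other gene, 11 of these with a gene on the opposite strand. The protocol marks no strand, so the values of these 11 are uncertain. They include Ndufaf2, with 65.6% of its exonic bases in B230220B15Rik, Ndufb6, with 39.0% in Smim27, and Ndufa2, with 11.5% in Tmco6. Atp5o is also among them and has a second model of the same name. Ndufb9, with 19.5% in Gm49356, and mt-Atp8 share bases with a gene on the same strand, and their values are uncertain for that reason. How reads that fit several places were assigned is not stated in the labels or file headers, which matters for genes with near-identical processed pseudogenes such as Cycs.

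Total counts ranged from 36928472 to 46755357 per library, and the libraries within each genotype differed from one another by more than sampling noise. Hepatocyte markers such as Alb summed to between 84426 and 113938 counts scaled to the library total (CPM) in every library. The following features of the libraries touch the results below. Knock-in replicate 1 held skeletal muscle transcripts, with 101 CPM summed over 12 markers against 2.20 to 3.94 CPM in the other 6 libraries. Markers of pericentral hepatocytes summed to 12417 CPM in wild-type replicate 1 and to between 10210 and 11627 CPM in the knock-in libraries, but to 6231 and 6527 CPM in the other wild-type libraries. Periportal hepatocyte markers summed to 13757 to 17716 CPM in wild type and 10770 to 13207 CPM in the knock-in libraries, and Kupffer cell markers to 271 to 374 CPM and 204 to 259 CPM. The part of these cell types in the results was not tested, and in bulk tissue fewer cells of a type and less RNA per cell cannot be told apart.

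Levels per length, as the deposited TPM, a read count scaled by annotated length and library, separated the 2 genomes. The 13 mitochondrial mRNAs had a median of 10220 TPM and the 92 nuclear mRNAs a median of 155 TPM, a ratio of 66.0 that ranged from 54.8 to 78.7 between libraries. mt-Co1, the catalytic subunit of complex IV, was the highest at 25021 ± 3733 TPM (SD, n = 7), followed by mt-Co2 at 19695 ± 2596 TPM and mt-Atp6 at 19012 ± 3463 TPM, whose spreads overlapped. mt-Nd6 was the lowest at 2679 ± 465 TPM, below mt-Nd5 at 3726 ± 555 TPM. mt-Nd6 is the protein gene on the light strand of mitochondrial DNA, and every other mitochondrial protein gene lies on the heavy strand. The RNA was enriched by its poly(A) tail, so these levels also depend on how well each mRNA was captured. They depend as well on the annotated length, which can differ from that of the mRNA made. Ndufb2, with 5628 exonic bases and a wild-type mean of 71.9 CPM, had 23.8 TPM. Ndufb6, with 659 exonic bases and a wild-type mean of 76.8 CPM, had 233 TPM. The part of annotated length in the order of levels was not tested.

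Among nuclear genes, 57 of 92 reached 100 TPM, 85 reached 10 TPM and 90 reached 1 TPM. The median was 311 TPM for complex III, 223 TPM for complex V, 209 TPM for complex II, 206 TPM for complex IV and 117 TPM for complex I. Complex IV held both ends of the order, with Cox6a1, the ubiquitous isoform of subunit VIa, at 1275 TPM and Cox6b2, a testis isoform, at 0.571 TPM. The highest of the other complexes were Atp5b, the catalytic beta subunit of the ATP synthase, at 586 TPM, Ndufb9 of complex I at 555 TPM, Uqcr11 of complex III at 535 TPM and Sdha, the flavoprotein of complex II, at 259 TPM. Ndufaf assembly factors lay lower, with a median of 16.5 TPM and a highest value of 42.2 TPM for Ndufaf8. Ordering by the deposited RPKM placed 103 of the 105 genes at the same rank. Both values scale the same counts by length and library, so a near-equal order follows from their definitions and is no separate check.

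**Figure D1:**
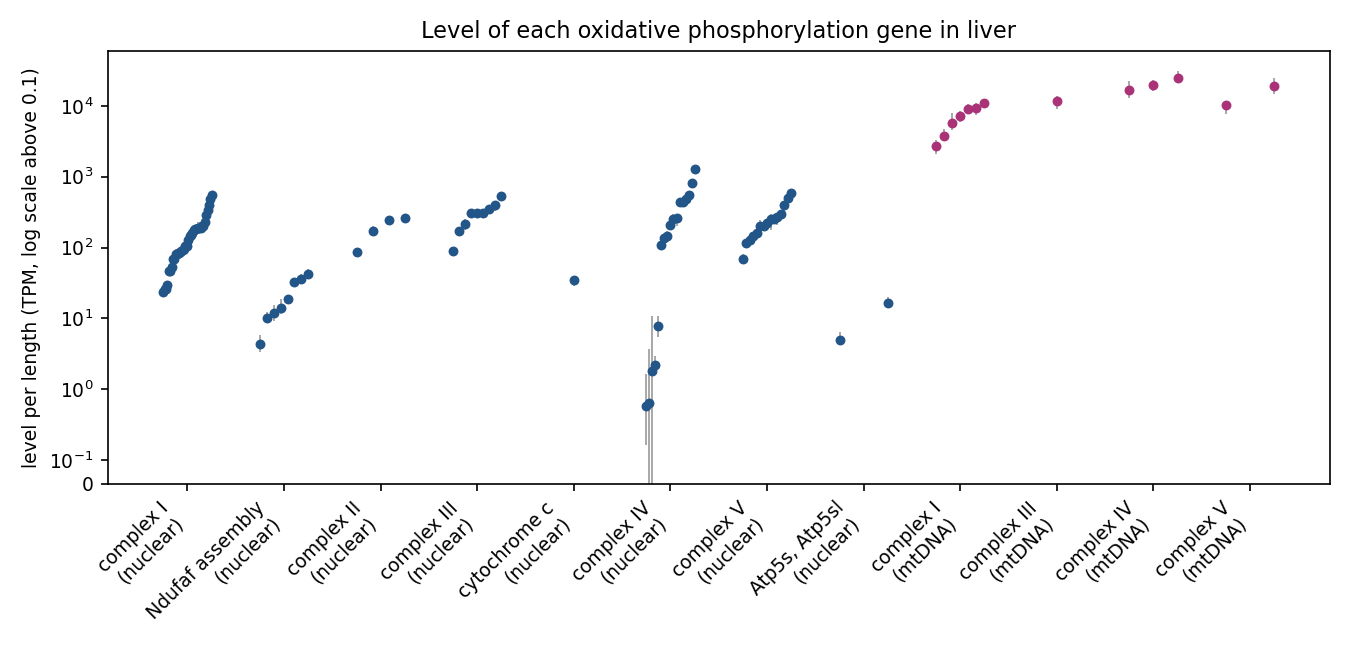
Level of each gene by complex and genome, as mean TPM over 7 libraries (points, log scale) with the lowest and highest library (grey lines). The mitochondrially encoded mRNAs, between 2679 and 25021 TPM, all lie above the highest nuclear mRNA, Cox6a1 at 1275 TPM.

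The knock-in and wild-type livers did not differ past the test's threshold in any gene of the pathway. Of the 105 genes, 103 had enough counts for the test, and 0 had an adjusted p under 0.05 in edgeR's quasi-likelihood test, a rule that called 0.0357% of all 13989 genes tested. DESeq2, limma-voom and edgeR without an expression filter also called 0 of them, where they called 1.36%, 0.05% and 0.0856% of all genes. Without adjustment, 8 genes had a p under 0.05 with a lower value in the knock-in and 0 with a higher one, against 4.97% and 5.6% of all genes. The count of 8 was 2 without knock-in replicate 2 or wild-type replicate 2, 3 without knock-in replicate 1, 4 without knock-in replicate 3 and 17 without knock-in replicate 4. Shares of all genes in these fits are not given here. These counts therefore do not tell a change of the pathway from a change over all genes. The smallest adjusted p was 0.319 in edgeR and 0.126 in DESeq2, both for Uqcrh.

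Most estimates of the nuclear genes were negative, and those of the mitochondrial genes had both signs, a difference between the genomes that was not tested. Of the 90 nuclear genes tested, 76 had a lower estimate in the knock-in and 14 a higher one, with a median log2 difference (knock-in minus wild type) of -0.12. Among all genes tested, 49.9% had a negative and 50.1% a positive difference, and the median was 0.00070. Of the 13 mitochondrial genes, 7 were negative and 6 positive, with a median of -0.0096. The genes share the same 7 libraries and are not independent, and without knock-in replicate 2 the nuclear median was -0.067. With 1 library left out at a time, the median ran from -0.14 to -0.047 for complex I, from -0.21 to -0.12 for complex IV and from -0.19 to -0.092 for complex V.

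**Figure D2:**
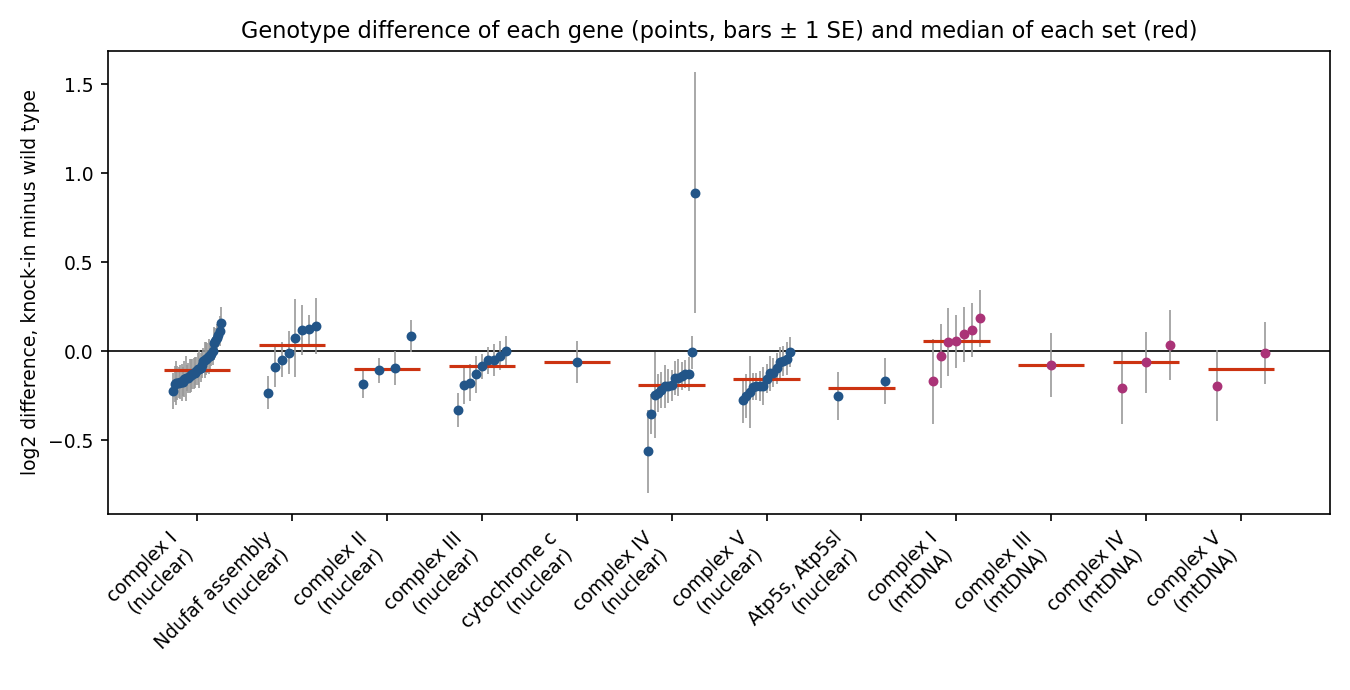
Log2 difference of each tested gene, knock-in minus wild type, with bars of 1 standard error, and the median of each set (red line). All 15 nuclear complex V genes lie below 0, and Cox6b2 at 0.89 has the widest bar.

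The mitochondrial mRNAs summed to 88146, 62451 and 63854 CPM in wild-type replicates 1 to 3 and to 68693, 70474, 59434 and 82567 CPM in knock-in replicates 1 to 4. The groups overlapped, and wild-type replicate 1 and knock-in replicate 4 were the highest. They took 7.14% ± 1.31 of all counts in wild type (SD, n = 3) and 7.03% ± 0.955 in the knock-in (SD, n = 4). Wild-type replicate 1 had the highest value in 10 of the 13 genes, and the median log2 difference was 0.15 without it and -0.12 without wild-type replicate 2. At this spread the data leave wide intervals for single genes.

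mt-Co1 stood at 23825, 16788 and 17720 CPM in wild-type livers, against 18781, 19075, 16977 and 24739 CPM in knock-in livers. The ranges overlapped almost fully, and the log2 difference was 0.033 with a 95% interval from -0.42 to 0.48. mt-Nd5, a proton-pumping subunit of complex I, had the smallest p of the 13, with 3943, 2911 and 2775 CPM in wild-type livers, against 3550, 4078, 3132 and 3833 CPM in knock-in livers. Its groups overlapped as well, and its log2 difference was 0.18 ± 0.16 (SE) with an adjusted p of 0.705 in edgeR. The differences of the others lay between -0.21 for mt-Co3 and 0.12 for mt-Nd1, and the sign of 10 of the 13 changed when 1 library was left out.

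The mitochondrial mRNAs are cut from long shared transcripts, so each was also read relative to the others. As a percent of the summed counts of the 13 mRNAs, mt-Co3, a core subunit of complex IV, took 10.6%, 9.79% and 9.75% in wild-type livers, against 8.94%, 8.31%, 8.83% and 9.45% in knock-in livers. mt-Atp6, the ATP synthase subunit of the proton channel, took 10.4%, 9.67% and 9.58% in wild-type livers, against 8.74%, 8.62%, 8.71% and 9.24% in knock-in livers. mt-Co2 took 9.85% ± 0.137 (SD, n = 3) in wild type and 9.59% ± 0.0932 (SD, n = 4) in the knock-in. Every knock-in share of mt-Co3, mt-Atp6 and mt-Co2 lay below every wild-type share. The shares sum to 100% within a library and are not independent, they have no counterpart over all genes, and they were not tested.

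**Figure D3:**
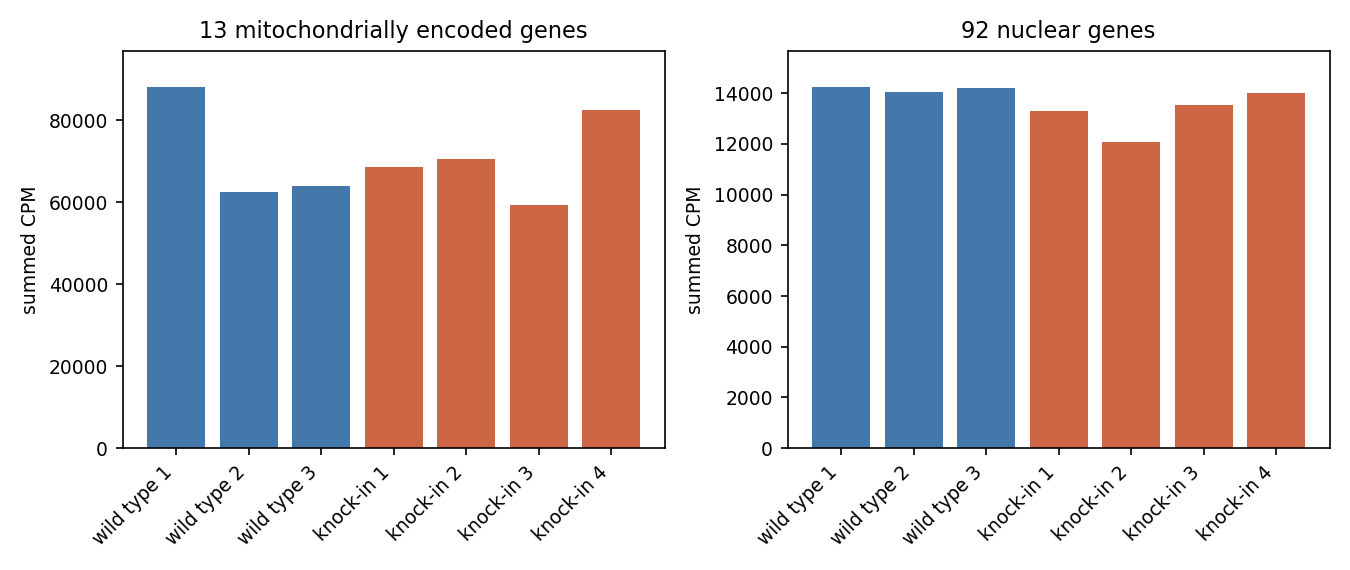
Summed CPM of the 13 mitochondrially encoded genes (left) and of the 92 nuclear genes (right) in each library, blue for wild type and orange for knock-in, with both axes starting at 0. Mitochondrial sums overlap between the groups, while the highest nuclear sum of the knock-in, 14030 CPM in replicate 4, lies just under the lowest of wild type, 14066 CPM.

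Nuclear genes summed to 14253, 14066 and 14194 CPM in the wild-type libraries and to 13294, 12082, 13531 and 14030 CPM in the knock-in libraries. The groups did not overlap, but knock-in replicate 4 was just under the lowest wild-type library, and knock-in replicate 2 was well below the rest. On other summaries of the same genes the groups overlapped: summed TPM was 18556 in knock-in replicate 4 and 18206 in wild-type replicate 1, and the mean centred log2 CPM was 0.0457 in knock-in replicate 4 and 0.0452 in wild-type replicate 2. The marker sums of periportal hepatocytes and Kupffer cells given above also did not overlap between the groups and were lower in the knock-in, and their part in the nuclear sums was not tested. The ratio of mitochondrial to nuclear sums was 6.18, 4.44 and 4.50 in wild-type livers, against 5.17, 5.83, 4.39 and 5.89 in knock-in livers, so that the groups overlapped. Of the 90 nuclear genes tested, 17, or 18.9%, had every knock-in value below every wild-type value, and 1 had the reverse. Among all genes tested, these shares were 5.46% and 5.48%. Without knock-in replicate 4 the count of 17 was 39, or 26 and 28 without wild-type replicates 1 and 3, where fewer libraries make a gap more frequent among all genes too (8.74%, 12.9% and 10.6%). Knock-in replicate 2 was the lowest library in 69 of the 89 nuclear genes with at least 1 CPM on average.

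Complex I accepts electrons from NADH. Of its 36 nuclear subunits, 29 had a negative and 7 a positive difference, with a median of -0.11, and 0 had an unadjusted p under 0.05. Ndufa2, an accessory subunit, had the smallest p, with 96.8, 92.8 and 84.6 CPM in wild-type livers, against 78.0, 71.1, 73.5 and 90.5 CPM in knock-in livers. Its groups overlapped through knock-in replicate 4, and its log2 difference was -0.22 ± 0.10 (SE) with an adjusted p of 0.477 in edgeR. Ndufs7, which carries the last iron-sulfur cluster before coenzyme Q, had a wild-type mean of 74.4 ± 3.88 CPM (SD, n = 3) against a knock-in mean of 67.0 ± 2.21 CPM (SD, n = 4) with no overlap, and a log2 difference of -0.15. Ndufb3, an accessory subunit of the membrane arm, was the 1 nuclear gene tested whose knock-in values, from 60.3 to 63.0 CPM, all lay above those of wild type, from 48.5 to 59.3 CPM, with a log2 difference of 0.16 and an adjusted p of 0.526.

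Ndufaf proteins build complex I and are not part of the finished enzyme. Among their 8 genes, 4 had a positive and 4 a negative difference, with a median of 0.034. Ndufaf8, known from human cells to act with NDUFAF5, had 18.7, 20.7 and 19.2 CPM in wild-type livers, against 16.6, 14.9, 16.5 and 18.5 CPM in knock-in livers. The highest knock-in value was close under the lowest wild-type value. The log2 difference was -0.23 ± 0.093 (SE) with an adjusted p of 0.422 in edgeR. Ndufaf7, a methyltransferase acting on a complex I subunit, had 0.14, which ran from 0.044 without wild-type replicate 1 to 0.35 without wild-type replicate 3.

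Complex II is the succinate dehydrogenase of the citric acid cycle and has no mitochondrially encoded subunit. Sdhd, a membrane anchor, stood at 175, 167 and 160 CPM in wild-type livers, against 145, 140, 147 and 157 CPM in knock-in livers. The groups did not overlap, and the log2 difference was -0.18 ± 0.077 (SE) with an adjusted p of 0.453 in edgeR. Sdhc, the other anchor, also did not overlap between the groups, with a log2 difference of -0.11, and Sdhb, the iron-sulfur subunit, had -0.091. Sdha had a wild-type mean of 524 ± 36.0 CPM (SD, n = 3) against a knock-in mean of 556 ± 27.9 CPM (SD, n = 4), a log2 difference of 0.085, and overlapped.

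Complex III passes electrons from coenzyme Q to cytochrome c. Uqcrh (ENSMUSG00000063882, chr4:116066965-116075071, minus strand, mm10), its acidic hinge protein, had 152, 157 and 150 CPM in wild-type livers, against 121, 104, 128 and 133 CPM in knock-in livers. Every knock-in value lay below every wild-type value, and knock-in replicate 2 was the lowest. The log2 difference was -0.33 ± 0.096 (SE), with a 95% interval from -0.55 to -0.11 and an adjusted p of 0.319 in edgeR. Of the 9 genes of the complex, 8 had a negative difference, with a median of -0.085. Uqcrq, a small subunit, and Uqcrfs1, the Rieske iron-sulfur protein, also did not overlap between the groups, with log2 differences of -0.19 and -0.085. Cyc1, which encodes cytochrome c1, had -0.051 and Cycs -0.059, each with overlapping groups.

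Complex IV, cytochrome c oxidase, had a median of -0.19, and 14 of its 15 tested genes were negative. Cox7a2 (ENSMUSG00000032330, chr9:79755361-79759878, minus strand, mm10), the isoform of subunit VIIa made in liver, had 152, 142 and 132 CPM in wild-type livers, against 104, 95.8, 115 and 129 CPM in knock-in livers. The groups did not overlap, with knock-in replicate 4 close to wild-type replicate 3. The log2 difference was -0.35 ± 0.11 (SE), with a 95% interval from -0.61 to -0.097 and an adjusted p of 0.346 in edgeR. Its relative Cox7a2l had -0.19, Cox7b had -0.24, and Ndufa4, a complex IV subunit despite its name, had -0.22, each with overlapping groups. Cox8a and Cox5b did not overlap between the groups and had -0.19 and -0.14. Cox6a1 differed by -0.0050 and Cox4i1 by -0.13, with overlapping groups.

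All 15 nuclear complex V genes had a negative difference, with a median of -0.15, and 5 did not overlap between the groups. Among all genes tested, 49.9% had a negative difference and 5.46% lay lower in the knock-in without overlap. Atp5g1, a gene for the c subunit of the rotor ring, had 181, 188 and 189 CPM in wild-type livers, against 163, 150, 165 and 171 CPM in knock-in livers. Atp5o, which links the stator to the catalytic head, had 136, 146 and 144 CPM in wild-type livers, against 122, 115, 129 and 129 CPM in knock-in livers. Both had every knock-in value below wild type and a log2 difference of -0.20 ± 0.076 (SE), with adjusted p of 0.404 and 0.414 in edgeR. Atp5d, a subunit of the central stalk, had -0.19, Atp5e -0.25 and Atp5h -0.15, also without overlap. Atp5j2, subunit f of the membrane part, had the lowest estimate, -0.28 ± 0.13 (SE), and overlapped, while Atp5b had a wild-type mean of 1283 ± 63.3 CPM (SD, n = 3) against a knock-in mean of 1246 ± 45.7 CPM (SD, n = 4). Knock-in replicate 2 was the lowest library in all 15 genes. Atp5s had a log2 difference of -0.16, which was -0.051 without wild-type replicate 3 and -0.26 without wild-type replicate 2. Atp5sl, also called Dmac2, had -0.25, which was -0.41 without wild-type replicate 3 and -0.16 without wild-type replicate 1.

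Several complex IV subunits exist as tissue isoforms, and the liver held almost only the ubiquitous ones. Cox4i1 and Cox6a1 each gave 99.9% or more of the TPM of their families, Cox6b1 gave 99.87% and Cox8a 99.78% of theirs, and Ndufa4 gave 99.5% of the TPM it shares with Ndufa4l2. In the VIIa family, Cox7a2 gave 63.9%, Cox7a2l 34.1% and Cox7a1, the heart and muscle isoform, 1.95%. Cox6a2, the muscle isoform of VIa, had 0, 2 and 3 counts in wild-type livers, against 62, 0, 4 and 1 in knock-in livers. Cox8b, an isoform of muscle and brown fat, had 1, 0 and 0 counts in wild-type livers, against 96, 4, 5 and 2 in knock-in livers. Knock-in replicate 1 held most of the counts of both genes, and both failed the expression filter. The same library had 589 counts of Ckm, 912 of Acta1, 612 of Tnnt3 and 473 of Mb, markers of skeletal muscle that stood at 0 to 10 counts in the other 6. The brown fat list, which holds Cox8b itself, summed to 211 to 420 CPM in wild type and 217 to 332 CPM in the knock-in, mostly from Elovl3 and Ppara, genes that hepatocytes also express. Within it, Dio2 stood at 0 in every library and Ucp1 at 0 to 4 counts, while Cidea, which coats lipid droplets, was counted at 2, 0 and 1 among wild-type livers and at 83, 155, 56 and 43 among knock-in livers. Log2 CPM, centred per gene, was averaged over Cidea, Elovl3 and Ppara, the genes of the list with at least 1 CPM on average. This mean ran from -0.58 to -0.24 in wild type and from 0.13 to 0.45 in the knock-in. It left out Cox8b, and the counts of Elovl3 and of Ppara each overlapped between the groups. Cidea reached 1 CPM on average only through its knock-in counts. The gap in the mean was therefore set by how Cidea was admitted and adds nothing to the Cidea counts above. Brown fat or Cidea as a part of the Cox8b counts was not tested. The authors' deposited table gives Cox8b a corrected p of 0.0399, the only gene of the pathway under 0.05 there, where 0.633% of 21027 genes pass, while edgeR without an expression filter gave it an adjusted p of 0.345.

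Cox7a1 had 100, 115 and 129 counts in wild-type livers, against 118, 57, 62 and 63 in knock-in livers. Knock-in replicate 1 lay within the wild-type range, and the other 3 knock-in libraries lay below it. The log2 difference was -0.56 ± 0.23 (SE) with an adjusted p of 0.450 in edgeR, and without knock-in replicate 1 it was -0.80 with an adjusted p of 0.313. Cox6b2 ran from 4 to 33 counts, with overlapping groups and a log2 difference of 0.89 ± 0.68 (SE), which was 0.18 without knock-in replicate 2, the library with 33 counts.

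**Figure D4:**
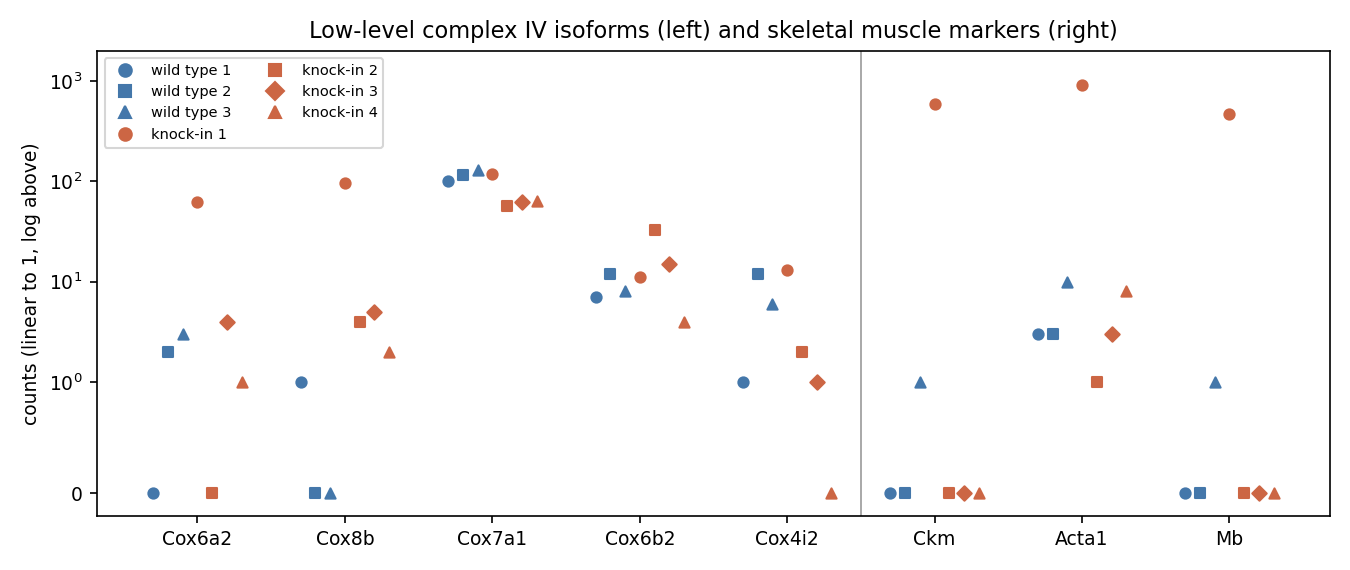
Counts per library of 5 complex IV isoforms of low level (left of the line) and 3 skeletal muscle markers (right), on an axis that is linear up to 1 and logarithmic above. Knock-in replicate 1 (orange circles) stands apart for Cox6a2, Cox8b and the markers, and for Cox7a1 lies among the wild-type libraries.

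Many subunits of these complexes are small, and their mRNAs are short. Exonic length was counted over all annotated models of a gene together. Its median was 1737 bases for the 92 nuclear genes, against 3043 bases for 3082 coding genes with at least 20 TPM. The lower values of knock-in replicate 2 went with length. For other coding genes of up to 800 bases, its median deviation from the gene mean was -0.23 on the log2 scale, for 800 to 1500 bases it was -0.15, and for over 4000 bases it was -0.00073. The genotype difference was therefore set beside that of other coding genes in the same bin of exonic length.

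Other coding genes had a median log2 difference of -0.15 up to 800 bases (78 genes), -0.10 from 800 to 1500 bases (334 genes), -0.042 from 1500 to 2500 bases (707 genes), -0.033 from 2500 to 4000 bases (872 genes) and 0.0031 over 4000 bases (1011 genes). The nuclear genes of the pathway had -0.13 (11 genes), -0.15 (23 genes), -0.13 (22 genes), -0.099 (13 genes) and -0.091 (11 genes) in these bins. In the shortest bin they lay no lower than other genes, while in the longer bins they lay lower. Without knock-in replicate 2, the values from 1500 to 2500 bases were -0.066 for the pathway and -0.019 for other genes, from 2500 to 4000 bases -0.037 and -0.020, and over 4000 bases -0.048 and 0.0067. The shortest bin and those over 2500 bases hold under 20 genes of the pathway, these differences between medians were not tested, and the part of length in them was not tested. A gene with several models can make an mRNA shorter than its exonic length, so the bins do not match genes by mRNA length.

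**Figure D5:**
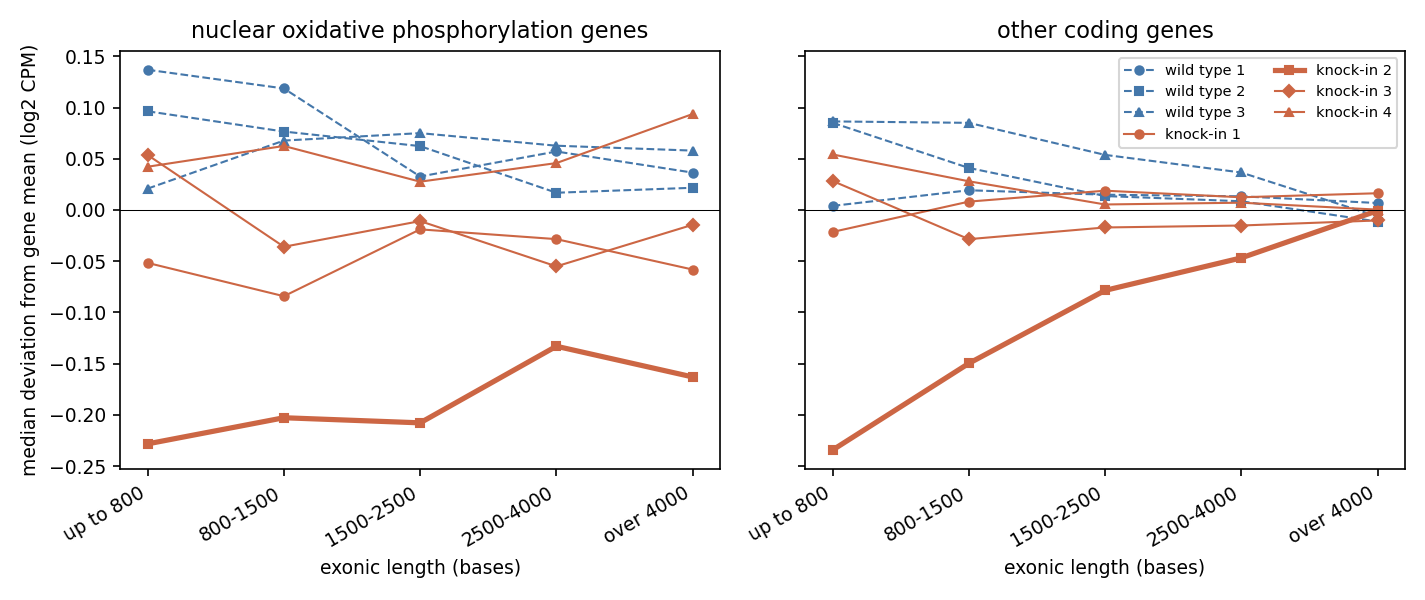
Median deviation of each library from the gene mean (log2 CPM) by exonic length, for nuclear oxidative phosphorylation genes (left) and other coding genes with at least 20 TPM (right). Knock-in replicate 2 (thick line) rises from -0.23 to near 0 with length on the right, and stays at or below -0.13 on the left.

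The nuclear genes were also read by the promoter matches shown above. The 19 genes with an NRF1 match had a median log2 difference of -0.054 and the 57 without one -0.14. The 18 with an ETS match had -0.14 and the 58 without one -0.12. These medians were not tested.

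Genes that build, supply or regulate the complexes were taken from 10 further lists with 148 genes in the table, of which 145 were tested. Of these, 0 had an adjusted p under 0.05 in edgeR, and the median log2 difference was -0.018. An unadjusted p under 0.05 was found for 3 with a higher and 3 with a lower value, against 5.6% and 4.97% of all genes. The groups did not overlap for 1 gene higher and 11 genes lower in the knock-in, against 5.48% and 5.46% of all genes. Assembly factors of complex I without Nduf names had a median of 0.11, with 5 of 8 positive, and Acad9, which also oxidises fatty acids, had 0.29 ± 0.13 (SE) with an adjusted p of 0.472 in edgeR. The 6 genes of complex V assembly had a median of -0.11, with Fmc1, an assembly factor of the catalytic head known from yeast, with a wild-type mean of 28.8 ± 2.04 CPM (SD, n = 3) against a knock-in mean of 23.3 ± 2.39 CPM (SD, n = 4) and no overlap. The 33 tested genes of mitochondrial DNA replication, transcription and RNA handling had a median of 0.0015, with 17 positive and 16 negative.

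Regulators of mitochondrial biogenesis had a median of -0.044. Ppargc1a, a coactivator of this programme, had the lowest estimate among them, -0.55, and its groups overlapped. Prkaa1, a catalytic subunit of AMP-activated kinase, had 0.24 ± 0.090 (SE) with an adjusted p of 0.403 in edgeR, the smallest of the list. Nrip1, of the same list, had -0.21 ± 0.084 (SE) with an adjusted p of 0.417 in edgeR. The groups of Prkaa1 and of Nrip1 did not overlap, with Prkaa1 higher and Nrip1 lower in the knock-in. The citric acid cycle without complex II had a median of 0.011, with Cs, citrate synthase, at 0.21 and Fh1, fumarase, at -0.21. Coenzyme Q synthesis had 0.00099, and carriers and uncoupling proteins 0.032. The mitochondrial stress response list had a median of -0.15 over 11 genes. In it, Atf4, its transcription factor, had a wild-type mean of 68.4 ± 1.73 CPM (SD, n = 3) against a knock-in mean of 60.6 ± 1.61 CPM (SD, n = 4), with no overlap and an adjusted p of 0.403. Atf5 had 236, 539 and 496 CPM in wild-type livers, against 307, 288, 300 and 326 CPM in knock-in livers. Wild-type replicate 1 lay below every knock-in library. The log2 difference of Atf5 was -0.47 with an adjusted p of 0.516 in edgeR. Without wild-type replicate 1 it was -0.76 with an adjusted p of 0.0226 in edgeR. That fit drops the wild-type library that went against the difference, so its p is no support for one. The share of all genes called in that fit is not given here.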

How the data were processed

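Liver RNA was measured by RNA sequencing in 3 wild-type and 4 Sprtn knock-in libraries after oligo(dT) enrichment, and the genome build was mm10, per the submitters' processing notes. For mapper, counter and annotation release, nothing is stated in the sources used here. The authors deposited whole-number counts per gene and library without normalization, and TPM and RPKM per library, per the file headers. They also deposited a log2 fold change and a corrected p-value, which are quoted as theirs, per the file headers. The 7 CPM columns of single libraries were not used.

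Groups came from the labels. The quasi-likelihood F test of edgeR 4.0.16 (R 4.3.3) was run on the counts after filterByExpr and TMM scaling, with no covariate beside genotype and with Benjamini-Hochberg adjustment over 13989 genes, with a threshold of 0.05. CPM was computed with TMM factors. Intervals are 95%. TPM served for levels between genes. Alternatives were DESeq2 1.42.0, limma-voom with limma 3.58.1, RLE, upper-quartile and nuclear-only scaling, no filter, a CPM filter, a replicate block and the omission of each library in turn. Bins of exonic length were chosen after seeing the data. The edgeR, DESeq2 and limma-voom tests were also run on simulated counts, and the other alternatives were not. Exons and overlaps came from GENCODE release M21, in which all 105 genes were found and 88 had the same position, and promoters from RefSeq. Figures used matplotlib 3.10.9.

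The members and gene lists were chosen with earlier results of these data known. The naming rule took all mitochondrial protein genes, and the 4 of each nuclear complex and of the Ndufaf genes with the smallest p. It also took the listed isoforms, the highest and lowest of each complex by TPM, and up to 2 genes of each further list with the smallest p. The 2 mitochondrial rRNAs stood at 0. Other names were chosen after their values were seen, as those without overlap between the groups, with the lowest or highest estimate, or with a role in an overlap. Not all genes under the naming rule are named in the text.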

Additional observations from a re-analysis of the deposited data

Results flagged for a closer look

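In 5 of 63 results screened, 1 of the 4 knock-in libraries stood apart from the other 3 by more than Dixon's 95% critical value for the gap over the range. Chance flags about 1 in 20 such groups. Knock-in replicate 1 was the high library for Cox6a2 at 1.37 CPM, Cox8b at 2.12 CPM and Cox7a1 at 2.60 CPM, and it also held the skeletal muscle markers. Their part in these values was not tested. Knock-in replicate 2 was the low library for Cox4i1 at 368 CPM, where the other knock-in libraries ran from 426 to 438 CPM. Knock-in replicate 4 was the high library for mt-Nd3 at 1276 CPM, where the others ran from 824 to 862 CPM.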

How the results depend on the processing

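No pathway gene was called under any of the alternatives run, and the smallest adjusted p was 0.126, for Uqcrh in DESeq2. The count of genes with an unadjusted p under 0.05 and a lower value, 8 in edgeR, was 2 without knock-in replicate 2 or wild-type replicate 2, 3 without knock-in replicate 1, 4 without knock-in replicate 3 and 17 without knock-in replicate 4. These counts have no share of all genes from the same fits beside them. Leaving out 1 library at a time, the nuclear median ran from -0.15 to -0.067 and the mitochondrial median from -0.12 to 0.15. The median of the Ndufaf genes ran from -0.070, without wild-type replicate 2, to 0.089. Nuclear genes of over 1500 exonic bases alone had a median of -0.100. Replicate numbers did not pair the libraries, with correlations of deviations of -0.061, 0.0051 and -0.019 and no library closest to its own number. With the replicate number as a block, the nuclear median was -0.15, the mitochondrial median -0.081 and 0 pathway genes were called, and the sign turned for Cox6a1 (0.015), Ndufaf5 (-0.078) and mt-Co1 (-0.074). Of 72 genes under the naming rule, 14 changed sign, 11 of them on leaving out a library and under no other alternative. Their log2 ranges over the left-out libraries were -0.038 to 0.039 for Cox6a1, -0.14 to 0.085 for Cycs, -0.094 to 0.24 for Ndufaf5, -0.048 to 0.021 for Uqcrc1, -0.31 to 0.033 for mt-Atp6, -0.14 to 0.15 for mt-Atp8, -0.089 to 0.21 for mt-Co1, -0.15 to 0.11 for mt-Co2, -0.33 to 0.022 for mt-Co3, -0.17 to 0.071 for mt-Cytb, -0.029 to 0.20 for mt-Nd2, -0.34 to 0.15 for mt-Nd3, -0.12 to 0.13 for mt-Nd4 and -0.12 to 0.32 for mt-Nd6. The cause was not tested. With 3 and 4 libraries, the median standard error of a mitochondrial gene was 0.18 and that of a nuclear gene 0.093 on the log2 scale. Differences of more than 3 standard errors, as for Uqcrh, did not pass the adjusted threshold.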
